A study of Mus musculus with 94 samples.

Results

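Gene expression in the liver of wild-type mice was compared with that in spleen and thymus. The arrays were all of those labelled wild type from these organs, 10 of liver and 24 of spleen and thymus (12 each), which makes 34 of the 94 arrays of the series. The series profiled mice of 3 lines, mutated in Hmgn1, Hmgn3 or Hmgn5, which encode small nucleosome-binding proteins of the high mobility group N (HMGN) family, beside wild-type males. The 12 wild types were C57BL/6N males aged 17 weeks with no mutated Hmgn allele and no treatment in the labels. Each line had 4 spleen and 4 thymus arrays of wild types. The Hmgn3 line had 4 liver arrays, and the Hmgn1 and Hmgn5 lines had 3 each. Separate mice were the replicates, and 10 of the 12 mice gave all 3 organs. Whole organs were extracted, so each value mixes the organ's cell types, and fewer cells of a type cannot be told apart from less RNA per cell.

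The liver consists mainly of hepatocytes, which secrete most plasma proteins, make bile acids, urea and glucose, and clear drugs and hormones, beside endothelial cells, resident macrophages (Kupffer cells), stellate cells and bile duct cells. The spleen filters blood and holds B cells, T cells, macrophages and, in mice, cells that form red cells. The thymus is filled with dividing immature T cells (thymocytes). Hepatocyte identity depends on transcription factors such as HNF1, HNF4A, FOXA and C/EBP proteins, and lymphoid identity on factors such as Ikaros and ETS-family proteins.

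Levels below are background-subtracted intensities after quantile normalization of the 34 arrays together, in arbitrary units, given as the lowest, median and highest array of an organ. Differences are log2(intensity + 16) values of liver minus another organ, fitted by limma within each line. This scale understates the change of dim probes. A gene was called higher in liver when liver exceeded both spleen and thymus by a log2 difference of 1 or more, each with a Benjamini-Hochberg adjusted p under 0.05, in each of the 3 lines, and lower by the same rule in the other direction. The adjusted p quoted for a gene is the largest of its 6 (2 comparisons in 3 lines). A liver difference quoted as 1 value is liver minus the mean of spleen and thymus. Each gene is read by 1 probe, that of highest mean. Where a probe is called dim or bright, this describes its signal only. It does not rank the abundance of different transcripts. Within a line the deposited arrays of an organ had nearly equal quantiles and the organs differed in scale, so organ and set cannot be told apart within a line, and the 3 lines repeat the comparison.

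Of the 25697 probes, 12247 to 12896 exceeded array noise in liver, 13103 to 14477 in spleen and 12926 to 14743 in thymus. The labelled organs carried their defining markers. The list of secreted liver proteins averaged 11.6 to 11.9 on the log2 scale over the 10 liver arrays and at most 6.68 on any other array. The T cell list averaged 9.02 to 9.59 in thymus, 7.31 to 7.75 in spleen and 4.23 to 4.37 in liver. The B cell list averaged 8.47 to 8.67 in spleen, 4.88 to 5.32 in thymus and 4.25 in the median liver. Spleen replicate 4 of the Hmgn3 line stood apart, with 6.68 for the secreted liver proteins against a spleen median of 4.93. Every spleen value quoted as highest for the 12 leading liver genes below is from that array, where these genes read 0.982 to 6.51% of their liver medians. Without it 1704 probes were higher and 1581 lower in liver, against 1699 and 1566 with it. The pancreatic acinar list ranged from 4.37 to 11.7 over the spleens, and the adipocyte list from 6.69 to 8.49 over the thymuses against 5.47 to 5.62 in liver. The skeletal muscle list reached 7.09 in thymus replicate 1 of the Hmgn5 line.

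**Figure D1:**
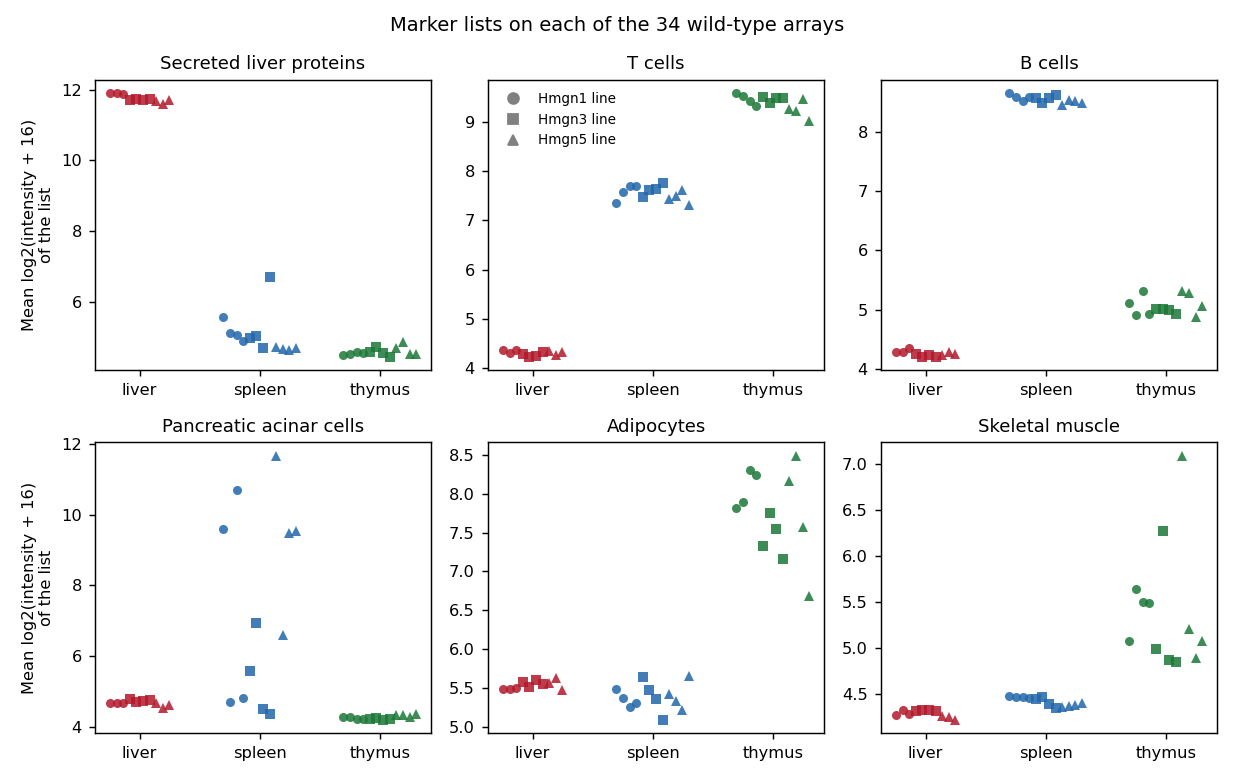
Mean log2(intensity + 16) of 6 marker lists (y axis) on each of the 34 wild-type arrays (points), by organ on the x axis and with the mouse line as the symbol. Secreted liver proteins lie between 11.6 and 11.9 in liver, 1 spleen of the Hmgn3 line reads 6.68, and the acinar, adipocyte and muscle lists vary widely between spleens or thymuses.

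Of 10119 genes tested in all 3 lines, 1187 (11.7%) were higher in liver and 1266 (12.5%) were lower. Within single lines the shares of probes called higher were 13.8% in the Hmgn1 line, 12.6% in the Hmgn3 line and 14.5% in the Hmgn5 line, and the shares called lower were 13.9%, 12.1% and 13.7%. At an adjusted p under 0.05 alone, 75.4%, 71.2% and 67.1% of the probes differed between liver and the mean of the other organs. By probe, 1699 of 14600 (11.6%) were higher and 1566 (10.7%) lower in all 3 lines, so 52% of those calls were higher. With the deposited values as the scale 2617 were higher and 572 lower (82.1% higher), and with the 75th percentile 56.4% were higher. By the smallest of the 6 differences, the excesses reached further than the deficits. That measure is limited by the brighter of spleen and thymus for higher genes and by the dimmer for lower genes. Genes bright in only 1 of these organs therefore count little or not at all among the deficits. Among the genes higher in liver, 389 differed by a log2 value of 3 or more in all 6 comparisons and 150 by 5 or more. Among the genes lower in liver, these counts were 170 and 28. The median of the smallest of the 6 differences was 2.13 for the higher genes and 1.62 in size for the lower genes. For 41 of the higher genes none of the 24 spleen and thymus arrays was above noise, and for 97 of the lower genes none of the 10 liver arrays was. Such genes passed the noise filter only through the organs where they were high. These 2 counts therefore describe the genes and add no support to the calls. The 10 liver values lay above all 24 others for 1730 genes (17.1%) and below all of them for 2075 (20.5%). That held for 1177 of the 1187 genes called higher and for 1249 of the 1266 called lower. The calls were made on these same arrays, so this separation of called genes adds no support to them either. Of 2619 genes with several tested probes, Czib and H13, named after their values were seen, had probes called in opposite directions. Among genes named below as higher or lower, most further tested probes shared the call, and none had the opposite call. The only further tested probe of Rasgrp1, Lyz2, Il7r, Spic, Clec4f, Ecm1 and Rps19 did not share it. For Atp2a3, C9, Lyz1 and Sel1l 1 of 2 did.

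**Figure D2:**
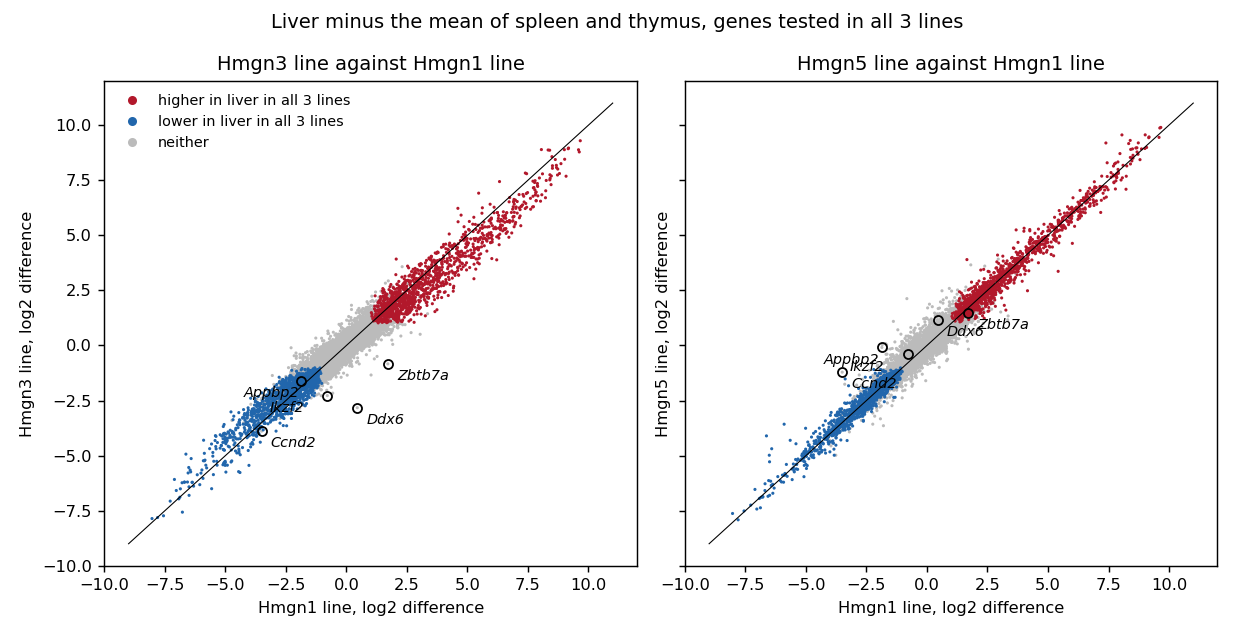
Log2 difference of liver minus the mean of spleen and thymus for the genes tested in all 3 lines, the Hmgn1 line (x axis) against the Hmgn3 line (left) and the Hmgn5 line (right). Points are genes, coloured where called in all 3 lines, the diagonal marks equal differences, and the 5 circled genes are those whose difference varied most clearly between lines.

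The 12 genes with the clearest excess were those for the lipoprotein component Apoc3, the fibrinogen chain Fga, the carrier fetuin-A (Ahsg), the protease inhibitors Serpina1c and Serpina1e, the heme scavenger hemopexin (Hpx), Azgp1, the methionine adenosyltransferase Mat1a, the alpha-1-microglobulin precursor Ambp, the major urinary protein Mup21, vitronectin (Vtn) and the glycine methyltransferase Gnmt. Their smallest differences ranged from 7.87 to 8.92. These genes were picked by those differences among genes already called. The adjusted p and the 6 of 6 comparisons quoted for them follow from that choice and add no support. Apoc3, which encodes an inhibitor of triglyceride clearance, read 16094, 19816 and 20573 in liver. It read -1.21, 5.58 and 275.3 in spleen and -2.84, 4.63 and 14.02 in thymus. No liver array came near any of the others. Its liver difference was 9.66 ± 0.25 (SE) in the Hmgn1 line, 9.29 ± 0.42 in the Hmgn3 line and 9.89 ± 0.15 in the Hmgn5 line, with an adjusted p of 4.8e-12 and a liver excess in 6 of 6 comparisons. Fga read 10220, 12367 and 14062 in liver. Its values were -0.979, 3.29 and 176.3 in spleen, and in thymus -0.845, 0.969 and 3.67 with 0 of 12 arrays above noise. Against thymus the Fga excess was therefore a bound, at least 2041-fold in the line where the bound was lowest (adjusted p 7.7e-13).

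Where an organ was at noise on every array of all 3 lines, "at least" folds compare the mean log2 intensity of the brighter organ with that of the dim organ raised to at least the lowest signal above noise of each array, and the lowest of the 3 lines is given. The fitted differences of such genes are not bounds. Mup21 read 4477, 6730 and 8505 in liver, -3.92, 1.87 and 67.9 in spleen and -2.36, -0.278 and 4.34 in thymus. Mouse Serpina1 and Mup genes are near-identical copies, so their probes may read several members. The 12 spleen values of Serpina1e ranged up to 951, and without the Hmgn3 spleen that gave this value its liver difference in that line was 9.46 in place of 8.88. Among the other 11 genes the differences in the Hmgn3 line without that spleen lay between 8.29 and 9.71.

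**Figure D3:**
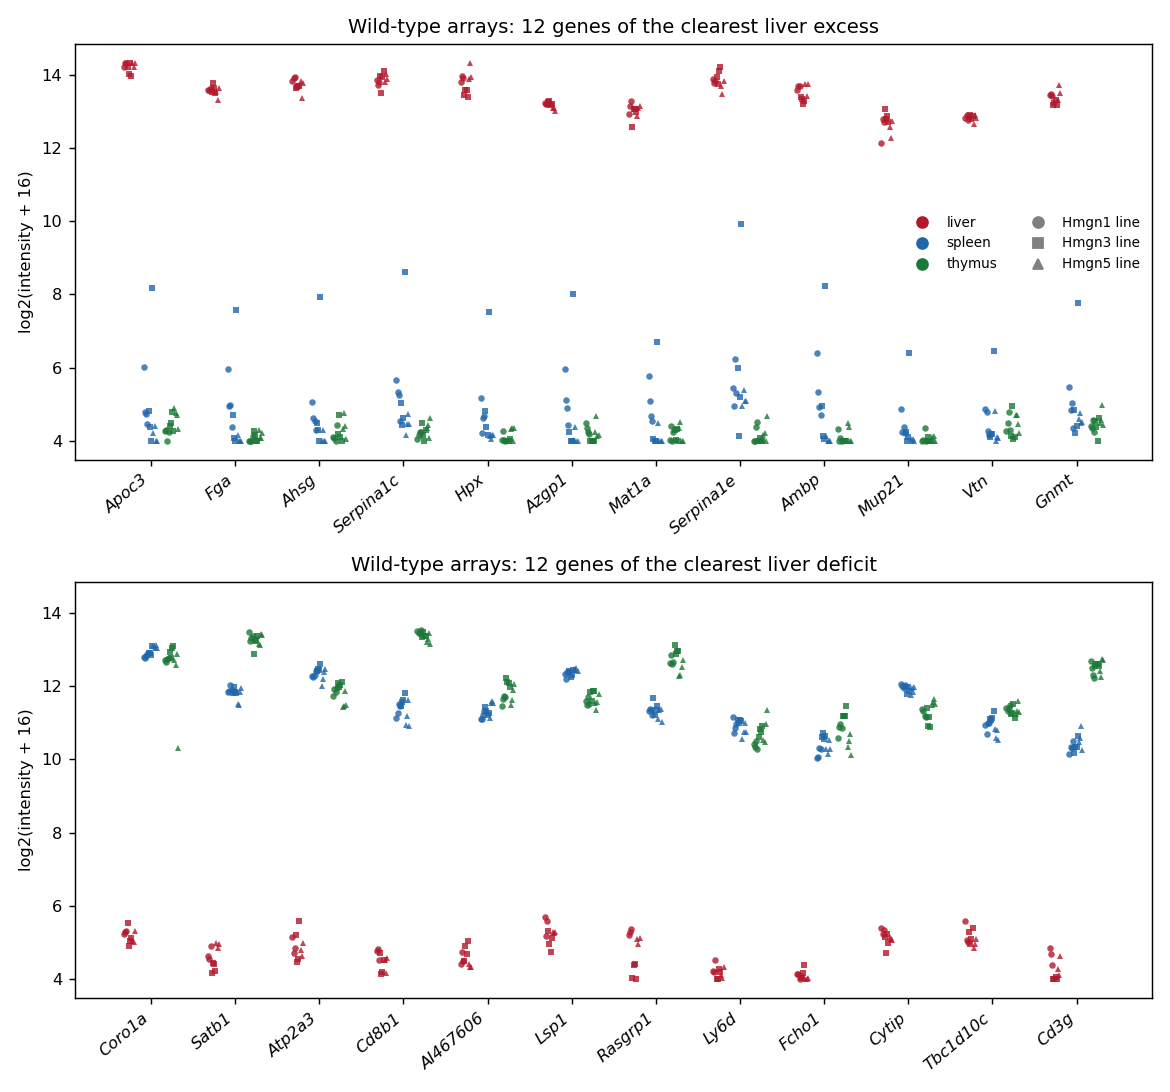
Log2(intensity + 16) of the 12 genes of clearest liver excess (top) and of clearest liver deficit (bottom) on the 34 wild-type arrays (points), intensities below 0 being set to 0, so that 4 is the lowest value. Liver does not overlap spleen or thymus for any of the 24 genes, spleen replicate 4 of the Hmgn3 line is the highest spleen for all 12 upper genes, and thymus replicate 4 of the Hmgn5 line lies low for Coro1a.

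Promoters of leading genes are shown because short motifs of the transcription factors named above can be read from them. The window ran from 250 bases before to 50 bases after the start of each gene in RefSeq (GRCm38.p6), and 962 of the 1187 higher genes, 1010 of the 1266 lower genes and 8216 of the 10119 tested genes had an entry. Both strands were searched for GTTAAT, the core of the HNF1 motif, with the capitals below marking it or its reverse complement. Of the higher genes, 8.21% held it, against 4.64% of the genes tested, 3.56% of the lower genes and 7.20% of all 27025 promoters. Among the 123 matched genes higher by 5 or more in all 6 differences, 26 held it (21.1%). Of the 12 genes above, 3 with the motif are shown: Fga (chr3:83025903-83026202, plus strand), Serpina1c (chr12:103904901-103905200, minus strand) and Serpina1e (chr12:103956848-103957147, minus strand).
Fga: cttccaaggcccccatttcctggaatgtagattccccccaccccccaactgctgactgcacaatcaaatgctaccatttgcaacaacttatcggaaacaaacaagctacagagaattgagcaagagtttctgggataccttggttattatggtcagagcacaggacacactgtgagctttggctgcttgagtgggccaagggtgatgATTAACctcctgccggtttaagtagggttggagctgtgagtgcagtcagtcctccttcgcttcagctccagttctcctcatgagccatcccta
Serpina1c: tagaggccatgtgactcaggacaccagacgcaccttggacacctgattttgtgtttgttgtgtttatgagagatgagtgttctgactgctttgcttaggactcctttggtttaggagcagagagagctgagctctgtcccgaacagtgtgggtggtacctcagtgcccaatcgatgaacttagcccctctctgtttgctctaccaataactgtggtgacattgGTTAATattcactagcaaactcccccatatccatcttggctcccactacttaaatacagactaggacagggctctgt
Serpina1e: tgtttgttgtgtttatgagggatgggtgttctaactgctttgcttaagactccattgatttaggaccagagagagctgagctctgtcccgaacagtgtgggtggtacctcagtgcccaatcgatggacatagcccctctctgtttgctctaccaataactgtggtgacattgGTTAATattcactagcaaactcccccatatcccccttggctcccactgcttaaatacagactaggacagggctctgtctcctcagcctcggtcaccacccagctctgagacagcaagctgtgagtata
The motif starts 43 bases before the annotated start of Fga, on the opposite strand, 27 bases before that of Serpina1c and 78 bases before that of Serpina1e.

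CAAAGT, the core of the HNF4 repeat, was in 17.2% of the promoters of higher genes, 30.9% of those of the 123 most liver-high genes, 12.3% of those tested, 10.3% of those of lower genes and 14.3% of all promoters. TATAAA, the TATA box, was in 11.6%, 22.8%, 8.69%, 7.33% and 14.2% of the same sets. Of the 133 matched genes lower by 3 or more in all 6 differences, 11.3% held TATAAA, 6.02% CAAAGT and 1.5% GTTAAT. The palindrome TTGCGCAA, bound by C/EBP proteins, was in 1 of 962 higher genes, 1 of 1010 lower genes, 0 of the 123 most liver-high genes, 0.292% of those tested and 0.185% of all promoters. GGAAGT, the core bound by ETS-family proteins, was in 29.6% of the promoters of lower genes, 28.6% of those of the 133 lower by 3 or more, 28.3% of those tested, 20.6% of those of higher genes and 24.1% of all promoters. The 2 leading liver-low genes that hold it are Satb1 (chr17:51833241-51833540, minus strand) and AI467606 (chr7:127091186-127091485, plus strand), with the motif in capitals.
Satb1: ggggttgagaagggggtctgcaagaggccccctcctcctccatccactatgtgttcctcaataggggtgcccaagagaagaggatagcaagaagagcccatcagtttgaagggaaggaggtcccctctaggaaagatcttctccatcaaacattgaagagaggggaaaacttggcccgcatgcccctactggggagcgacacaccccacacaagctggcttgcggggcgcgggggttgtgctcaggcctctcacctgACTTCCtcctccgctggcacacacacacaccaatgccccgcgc
AI467606: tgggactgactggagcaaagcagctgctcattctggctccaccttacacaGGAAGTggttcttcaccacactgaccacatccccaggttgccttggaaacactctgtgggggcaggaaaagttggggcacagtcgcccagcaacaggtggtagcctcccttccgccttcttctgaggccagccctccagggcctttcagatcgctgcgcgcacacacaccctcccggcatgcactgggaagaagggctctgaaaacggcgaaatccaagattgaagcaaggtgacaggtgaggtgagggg
A match describes the letters of the window only, and these shares carry no test.

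The members of all lists were chosen with earlier results of these data known. The shares of members called, here and below, therefore describe the lists and add no support. Genes of secreted liver proteins were high in liver. Of the 21 listed secreted liver proteins, 18 were tested and 17 were higher in liver, with a median difference of 7.65, where the median of all 10119 genes was -0.21. Transthyretin (Ttr), the carrier of thyroid hormone and retinol-binding protein, read 10336, 12728 and 14308 in liver against at most 485.6 in spleen and 10.7 in thymus. Transferrin (Trf) read 13016, 15187 and 17778 in liver, 443.5, 553.4 and 892.5 in spleen, and 99.01, 238.5 and 614.7 in thymus, so that both other organs were well above noise. The exception was albumin (Alb), the main plasma protein, whose single probe read 5.06, 27.3 and 119.0 in liver against at most 5.84 in spleen and 7.003 in thymus. Its liver difference of 1.69 had the same sign in 6 of 6 comparisons (adjusted p 0.0010), and the smallest of them, 0.50, fell short of the threshold. Probes of other liver products were dim. The fibrinogen chain Fgb read -4.09, 3.89 and 18.9 in liver and the fatty acid carrier Fabp1 -3.51, -0.671 and 1.16, and neither was tested in all 3 lines.

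All 18 tested genes of coagulation and its inhibitors were higher in liver, with a median difference of 6.46. Plasminogen (Plg) read 4412, 5313 and 5669 in liver, at most 18.8 in spleen and at most 1.43 in thymus. Prothrombin (F2) read 1484, 2681 and 3420 in liver and at most 15.4 elsewhere. Kininogen (Kng1) differed by 7.84 and read 35.9 to 147.8 in thymus. Of 14 apolipoprotein and lipoprotein genes tested, 12 were higher (median 5.58). Apoa1 and Apoa2, the main proteins of high-density lipoprotein, read 13257 and 15609 at the liver median. Their highest spleen values, 546.2 and 1628, came from spleen replicate 4 of the Hmgn3 line.

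Of 20 complement genes tested 15 were higher, led by C9 (3062, 4061 and 5365 in liver against at most 14.5 in spleen and 2.98 in thymus), Cfi, Masp2 and C8g, which encode components and regulators of the cascade. The 5 not called were C2 (1.95), C3 (0.36) and the C1q chains C1qa (-0.80), C1qc (-1.90) and C1qb (-2.26). The probe of C3, the central complement component, read 0.591, 8.46 and 16.5 in liver. Of 13 acute-phase genes 10 were higher (median 4.99), with C-reactive protein (Crp) at 3173, 4102 and 4692 in liver, the iron hormone hepcidin (Hamp) at 2648, 4054 and 6033, and Fgl1 and Saa4 after them. Serum amyloid genes Saa1 and Saa2, which rise in inflammation, read 15.8, 23.1 and 120.0 and 7.24, 14.1 and 66.7 in liver. Their liver differences were 1.19 and 0.81, and neither passed in all 6 comparisons. Lipocalin 2 (Lcn2), also not called, differed by -0.86, with 4.76, 28.99 and 65.8 in liver and 71.2, 210.6 and 658.6 in spleen.

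All 23 tested genes of amino acid and urea metabolism were higher in liver, by 1.71 to 8.68 with a median of 4.84. Carbamoyl phosphate synthetase (Cps1), the entry enzyme of the urea cycle, read 3916, 4925 and 7218 in liver, at most 41.8 in spleen and at most 7.09 in thymus. Arginase (Arg1), the last enzyme of the cycle, read 4081, 4661 and 5401 in liver, and was at least 855.3-fold higher than in thymus. Ornithine transcarbamylase (Otc) was dimmer, at 103.6, 143.7 and 157.9 in liver, with a difference of 3.18. Argininosuccinate synthase (Ass1) was the member that other organs also carried, with 67.7 to 161.9 in spleen and 55.3 to 103.9 in thymus against 5071 to 7534 in liver.

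Of 17 cytochrome P450 genes tested 16 were higher in liver (median 6.64). The leading genes were Cyp2d9, Cyp3a11, Cyp4a12a and Cyp2c70, enzymes of steroid, drug, fatty acid and bile acid oxidation, with liver medians of 6267, 5836, 4199 and 5354. Cyp2e1, which oxidises ethanol, read 9340, 11014 and 11599 in liver but 211.6, 447.2 and 1516 in thymus, where the adipocyte list was at 6.69 to 8.49. The exception was Cyp2b10 (0.86), an enzyme induced by drugs. Of 21 genes of conjugation, esterase and alcohol oxidation 20 were higher (median 4.87), and Fmo1 (2.60) was not called. The carboxylesterase Ces1c, the glucuronosyltransferase Ugt2b36, the aldehyde oxidase Aox3 and the alcohol dehydrogenase Adh1 led them. Adh1 differed by 6.78 although thymus read 61.3 to 199.6.

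Bile acid synthesis and transport had 15 of 17 genes higher (median 4.87). Cyp7a1, the rate-limiting enzyme of bile acid synthesis, read 217.0, 539.4 and 1177 in liver and at most 6.35 elsewhere, a difference of 4.86. Cyp8b1, which sets the cholic acid share, differed by 7.85, and the bile salt export pump Abcb11 by 6.34. The oxysterol hydroxylase Cyp7b1 differed by 5.79 while reading 49.4 to 101.9 in spleen. Cyp39a1 (1.07) and Amacr (0.48) were not called. All 14 tested genes of glucose metabolism were higher (median 3.36). Glucose-6-phosphatase (G6pc), the enzyme that frees glucose, read 1758, 2869 and 4815 in liver and at most 21.1 elsewhere. Fructose bisphosphatase (Fbp1), the fructose enzyme Tkfc and the glucokinase regulator Gckr followed, with differences of 6.85, 4.94 and 5.03. All 4 major urinary protein genes tested, male-abundant pheromone carriers in the mouse, were higher, by 7.34 to 8.43.

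Of 14 genes of fatty acid oxidation 7 were higher (median 2.23), and of 13 genes of fat synthesis 4 were higher (median 1.52). The fat synthesis list averaged 8.52 to 9.39 in liver, 6.32 to 6.54 in spleen and 7.35 to 8.85 in thymus. Dgat2, which makes triglyceride, read 2559, 2984 and 3982 in liver, 25.5, 44.4 and 63.96 in spleen and 220.4, 1180 and 2101 in thymus. Scd1, the stearoyl-CoA desaturase, read 4740, 8524 and 10693 in liver and 3875, 5517 and 8703 in thymus, and was not called (adjusted p 0.92). Thyroid-responsive Thrsp overlapped thymus too, and the medium-chain dehydrogenase Acadm read 3750 to 4596 in liver and 2382 to 6033 in thymus. The adipocyte list was at 6.69 to 8.49 in the same thymuses, 5.09 to 5.66 in spleen and 5.47 to 5.62 in liver. Its defining gene adiponectin (Adipoq) was lower in liver, with 377.8, 937.4 and 2000 in thymus, 37.3, 79.6 and 295.7 in spleen and -1.07, 1.42 and 9.80 in liver, while the brown fat gene Ucp1 read 287.8, 785.6 and 1558 in thymus and at most 3.25 elsewhere. Of the 9 adipocyte genes tested Adipoq was the only 1 called, and 8 were not. The liver differences of the 9 ran from -4.11 to 3.28 (median -1.36), so members went both ways. The part of adipose tissue in the thymus values was not tested.

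Of 14 cholesterol synthesis genes 10 were higher (median 2.21), led by Hsd17b7, Cyp51, Lss and Sc5d with differences of 3.02, 2.78, 2.69 and 2.90. Srebf2, which encodes the transcription factor that induces this pathway, was lower, at 56.3, 82.4 and 120.3 in liver, 268.4, 413.6 and 553.1 in spleen and 223.6, 311.1 and 477.3 in thymus (difference -1.95, adjusted p 6.0e-07). Of 16 peroxisome genes 11 were higher (median 2.07). Urate oxidase (Uox) differed by 8.13, the glycolate oxidase Hao1 by 6.69 and catalase (Cat) by 4.77, whereas the import genes Pex6, Pex7, Pex13 and Pex14 had differences of 0.59 to 1.75 and were not called. None of the 19 tested genes of oxidative phosphorylation was called in either direction. Their median difference was 0.72 (2.48 with the deposited values as the scale), and the list averaged 9.81 to 9.92 in liver, 8.52 to 8.78 in spleen and 9.15 to 9.91 in thymus.

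Of 18 liver transcriptional regulators tested 15 were higher (median 3.26). The bile acid receptor Nr1h4 read 903.4, 1212 and 1464 in liver and at most 9.87 elsewhere, and was at least 218.9-fold higher than in spleen. Hnf4a read 744.1, 995.5 and 1490 in liver and at most 18.8 elsewhere. Foxa3 and Creb3l3 differed by 5.86 and 5.31, Nr1i3 by 4.02, Prox1 by 3.34, Cebpa by 3.18 and Foxa2 by 2.04. The receptor genes Nr1h3 (1.54) and Ppara (1.39) and Esrra (0.24) were not called. Ppara read 10.9, 31.4 and 51.3 in liver. Of 22 endocrine genes of the liver 18 were higher (median 3.72), with Igf1 at 2074, 2248 and 3031 in liver, 157.0 to 230.7 in spleen and 77.7 to 121.4 in thymus, and Igfals and Igfbp2 at differences of 5.75 and 5.81. Fgf21 (0.72) and Igf1r (-0.42) were not called. Of 16 genes of iron, copper and selenium handling 8 were higher, among them Hamp, the iron sensor Tfr2, ceruloplasmin (Cp) and Selenbp2. The transferrin receptor Tfrc was lower, at 53.6, 72.0 and 104.2 in liver, 625.6, 1450 and 2965 in spleen and 497.7, 594.7 and 842.1 in thymus, and so was Gpx3 (-3.27). The ferritin heavy chain Fth1 (-0.15) was not called, with 7773 to 10693 in liver and 8331 to 11399 elsewhere.

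**Figure D4:**
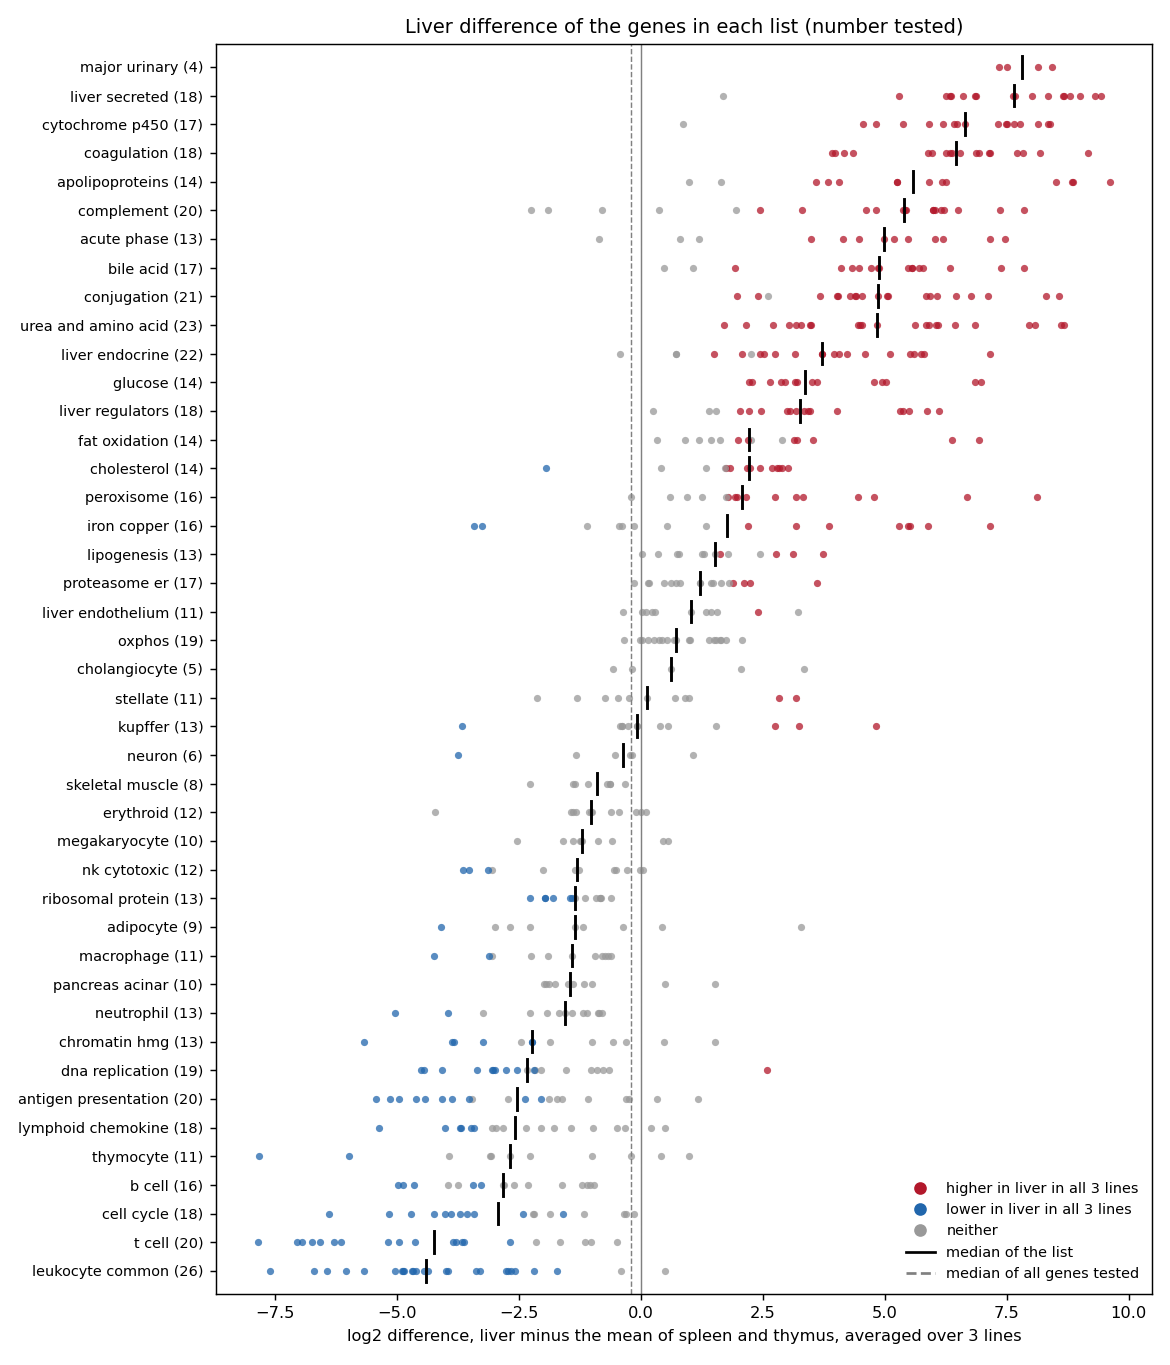
Log2 difference of liver minus the mean of spleen and thymus, averaged over the 3 lines (x axis), for the tested genes (points) of each list (y axis, number tested in brackets), with list medians as bars. Lists of hepatocyte function lie to the right, up to a median of 7.82, and lists of leukocytes and proliferation to the left, down to -4.41, and the dashed line marks the median of all genes, -0.21. The lists were chosen with earlier results of these data known.

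Among lists of the other liver cells, shares are to be read against the 11.7% of all genes called higher and the 12.5% called lower. Of 13 Kupffer cell genes 3 were higher and 1 lower, and the median difference was -0.09, or 0.21 and 0.89 with the 75th percentile or the deposited values as the scale. The complement gene C6 read 984.9, 1512 and 1989 in liver against 99.5 to 190.7 in spleen and at most 5.23 in thymus. The lectin Clec4f read 120.8, 163.8 and 214.2 in liver and at most 16.6 elsewhere, and the receptor Vsig4 83.8, 179.1 and 309.5 against at most 33.4. Spic, a factor of red pulp macrophages in spleen, was lower, at -4.43, 1.38 and 9.27 in liver and 491.2, 628.8 and 956.4 in spleen. Of 11 sinusoidal endothelial genes only Oit3 was called (higher, 2.40). Clec4g read 933.0, 1600 and 1932 in liver and 522.2, 1143 and 2007 in spleen, but at most 13.7 in thymus. Stab2 likewise overlapped spleen. Of 11 stellate genes Ecm1 and Reln were higher (2.83 and 3.17). None of 5 bile duct genes was called, and Krt18 read 320.8 to 561.0 in liver and 420.3 to 1286 in thymus.

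The 12 genes with the clearest deficit in liver were Coro1a, Satb1, Atp2a3, Cd8b1, AI467606, Lsp1, Rasgrp1, Ly6d, Fcho1, Cytip, Tbc1d10c and Cd3g. They include regulators of the leukocyte cytoskeleton (Coro1a, Lsp1), T cell receptor components and signalling genes (Cd3g, Cd8b1, Rasgrp1), and the chromatin organizer of thymocytes Satb1. Their differences were at least 5.69 in size in every comparison. They too were picked by those differences among genes already called, so an adjusted p or 6 of 6 comparisons adds no support. Coro1a read 14.1, 19.9 and 30.2 in liver, 7046, 7608 and 8931 in spleen and 1266, 6925 and 8703 in thymus. Its liver difference was -7.56 ± 0.08 (SE) in the Hmgn1 line, -7.73 ± 0.10 in the Hmgn3 line and -7.51 ± 0.40 in the Hmgn5 line (adjusted p 1.4e-08, liver lower in 6 of 6 comparisons). Satb1 read 1.86, 8.01 and 15.5 in liver, 2871, 3691 and 4150 in spleen and 7480, 10028 and 11399 in thymus, so that the 3 organs did not overlap. Fcho1, an endocytosis gene, was at noise on all 10 liver arrays and was at least 209.5-fold lower in liver than in spleen and at least 265.8-fold lower than in thymus. AI467606 read 3.94, 6.31 and 17.1 in liver, 2179, 2502 and 3097 in spleen and 2807, 3591 and 4740 in thymus.

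Of 26 genes shared by leukocytes, 24 were lower in liver, with a median of -4.41. Ptprc, the common leukocyte antigen CD45, read -5.41, -3.15 and 1.31 in liver, 70.8, 101.8 and 144.6 in spleen and 53.1, 102.5 and 174.4 in thymus. Ikaros (Ikzf1) read at most 9.49 in liver, 350.8 to 521.4 in spleen and 431.7 to 764.1 in thymus. Stk10 (0.49) and Myb (-0.41) were not called. Of 20 T cell genes 15 were lower (median -4.25). The receptor chains Cd3g, Cd3d and Cd3e read 2.25, 3.96 and 3.22 at the liver median, 1284, 1067 and 861.6 at the spleen median and 6007, 4727 and 3201 at the thymus median. Zap70, the receptor-associated kinase, was unusual in reading 113.7, 191.5 and 224.4 in liver, with a difference of -1.66, and was not called. The coreceptor Cd4 lay below all other arrays in liver but was not called, since its smallest difference was 0.56 in size.

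Genes that mark lymphoid cells of only spleen or only thymus could be called only where both organs exceeded liver. Shares here and in the lists below are to be read against the 12.5% of all genes called lower and the 11.7% called higher. Of 11 thymocyte genes 2 were lower. The recombinase Rag1 read 965.3, 1242 and 1836 in thymus, but -0.270, 3.48 and 20.0 in spleen and 0.337, 2.51 and 12.03 in liver, and Dntt 508.6, 703.5 and 1078 in thymus and at most 5.89 elsewhere. Of 16 B cell genes 5 were lower (median -2.82). Pou2af1 read 2292, 2797 and 4596 in spleen and 50.7, 72.3 and 126.6 in thymus, and was at noise in all liver arrays, at least 430.3-fold lower than in spleen. Cd79a, the signalling chain of the B cell receptor, read 1691, 2255 and 2404 in spleen but 7.85 to 38.8 in thymus. Of 12 genes of natural killer and cytotoxic cells Ctsw, Nkg7 and Ccl5 were lower, with differences of -3.53, -3.64 and -3.13. Of 18 lymphoid chemokine and cytokine genes 6 were lower, among them Ccl21a (16.7, 29.8 and 50.3 in liver, 3405, 4774 and 5932 in spleen), Il7, Ltb and Il7r.

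Of 20 antigen presentation genes 10 were lower and none was higher. The class II genes H2-Eb1, H2-Ab1 and H2-DMa differed by -5.44, -4.96 and -5.15. H2-Eb1 read 56.8, 91.0 and 144.8 in liver, 9949, 11314 and 12367 in spleen and 1282, 1671 and 2495 in thymus. The class I genes H2-K1 (1.18), H2-D1 (0.32), Tapbp (-0.25) and B2m (-0.31) were not called. B2m, the class I light chain, read 6860, 7945 and 8931 in liver, 9340 to 14899 in spleen and 7046 to 9724 in thymus, so that liver and thymus overlapped. Of 11 macrophage genes Lyz1 and Lyz2, and of 13 neutrophil genes S100a8 and Ltf, were lower, where 12.5% of all genes were. Lyz2 read 73.9, 100.8 and 157.1 in liver, 5309, 5983 and 9052 in spleen and 222.1, 881.6 and 1892 in thymus. None of the 12 erythroid or 10 megakaryocyte genes tested was called higher or lower. The band 3 gene Slc4a1 read 11.6 to 49.2 in liver, 8.07 to 114.8 in thymus and 5193 to 14062 in spleen.

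Of 18 cell cycle genes 11 were lower (median -2.93), and of 19 DNA replication genes 10 were lower and 1 higher (median -2.33). E2f2, a factor that drives entry into DNA synthesis, differed by -6.39, Top2a by -5.16, Birc5 by -4.72 and Cenpa by -3.89. Top2a read -3.43, 1.84 and 8.87 in liver, 187.5, 259.1 and 564.7 in spleen and 1001, 1601 and 2167 in thymus. The helicase subunits Mcm4, Mcm5 and Mcm2 differed by -4.46, -4.50 and -4.08. The helicase activator Mcm10 went the other way, at 1376, 1707 and 2175 in liver, 106.5, 178.2 and 292.0 in spleen and 309.7, 416.6 and 604.3 in thymus (difference 2.59, adjusted p 4.0e-05), and its other probe was called higher too. Liver lay above all 24 other arrays for this gene.

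Of 13 chromatin genes 6 were lower, with a median of -2.22. Uhrf1, a cofactor of maintenance DNA methylation, differed by -5.68 and Hmgb2 by -3.24. Among the HMGN genes that the series targets, Hmgn3 read 18.2, 32.6 and 38.9 in liver, 672.5, 912.4 and 1041 in spleen and 367.8, 533.4 and 628.9 in thymus (difference -3.88, adjusted p 6.1e-11). Hmgn2 read 206.6, 298.8 and 416.1 in liver, 2393, 2784 and 3875 in spleen and 5932, 6631 and 8331 in thymus (difference -3.82, adjusted p 4.0e-10). Hmgn1 in liver overlapped spleen but lay below every thymus, at 854.5, 966 and 1274 in liver, 1132, 1949 and 2766 in spleen and 1626, 2163 and 3097 in thymus. The Hmgn1 difference of -0.999 turned to between 0.51 and 0.76 with the deposited values as the scale. Hmgn5 read 318.6, 358.4 and 389.6 in liver, 43.2, 57.4 and 71.9 in spleen and 115.8, 216.2 and 376.3 in thymus, and was not called (difference 1.51, adjusted p 0.13).

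Of 13 ribosomal protein genes 6 were lower with the arrays quantile normalized, and the list median of -1.35 turned to 0.30 with the deposited values as the scale and was -0.64 with the 75th percentile. Rps3 read 965.3, 1250 and 1742 in liver, 5880, 6638 and 7480 in spleen and 4635, 5815 and 7413 in thymus. No direction relative to total RNA can be read for this group. Of 17 genes of the secretory pathway 4 were higher (median 1.21): the cargo receptor Lman1 (3.61), the vesicle coat GTPase Sar1b (2.12), the degradation adaptor Sel1l (2.24) and the disulfide isomerase Pdia6 (1.90). The acinar list varied from 4.37 to 11.7 over the spleens, and its part in the spleen values of secretory genes was not tested. None of the 10 acinar genes and 8 muscle genes tested was called.

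In 15 genes (17 probes, 0.116%) liver lay between the other organs, with a log2 difference of 1 or more from each in every line. The number of such probes depended on the scale, with 10 under the 75th percentile and 5 with the deposited values, 3 of which were among the 17, and 3 with an offset of 64. Thymus was lowest and spleen highest for 11 genes (0.109%), among them Alas2, the enzyme that starts heme synthesis in red cell precursors, the IgG receptor Fcgr4, Adam23, the endothelial gene Plvap, the kinase Nuak2 and the lysosomal cofactor Gm2a. Alas2 read 809.9, 1020 and 1218 in liver, 2155, 4477 and 7413 in spleen and 47.4, 221.2 and 864.4 in thymus. Fcgr4 read 113.0, 144.1 and 204.1 in liver, 845.3, 1084 and 1380 in spleen and 11.7, 22.3 and 43.4 in thymus, without overlap. Spleen was lowest and thymus highest for 4 genes (0.0395%). The water channel gene Aqp11 read 229.3, 261.5 and 321.2 in liver, 4.81, 12.4 and 21.5 in spleen and 1207, 1467 and 2060 in thymus. The interleukin-25 receptor Il17rb, the protease gene Ctsl and the respiratory subunit Cox7a1, an isoform of muscle and brown fat, were the others. The only further tested probe of Adam23 and that of Aqp11 did not share the call. Cox7a1 read 291.2 to 2746 in thymus, where the adipocyte and muscle lists also varied, and their part was not tested.

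At the other end, 103 genes (1.02%) stayed within 0.25 on the log2 scale in all 6 differences. The brightest were Mrpl49, Wsb2, Ccpg1, Tmed4 and Flcn, of which Mrpl49 encodes a mitochondrial ribosome subunit and Flcn folliculin, a regulator of growth signalling. Mrpl49 read 485.0, 498.2 and 641.5 in liver, 379.3, 547.8 and 642.4 in spleen and 457.8, 598.3 and 690.5 in thymus. Flcn read 423.5, 539.6 and 659.2 in liver and 474.3 to 856.8 and 499.3 to 644.7 in the other organs. The evenness held relative to quantile-normalized arrays: the 15 values of these genes were 0.15 to 0.54 with the 75th percentile as the scale and 0.64 to 1.84 with the deposited values.

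The liver-high genes were also compared among the 10 livers, a selection made after the values were seen. The SD of log2 values within lines had a median of 0.14 over the 1187 genes and was above 0.5 for 17. These SDs are of quantile-normalized values, so differences in scale between arrays are not part of them. The most variable were the forkhead gene Foxq1 (SD 1.27), the chemokine Cxcl1 (1.25), the lipolysis inhibitor G0s2 (1.17), Serpina4-ps1 (1.12), Phlda1 (0.98) and the lipid transporter Mfsd2a (0.82). Foxq1 ranged from 350.8 to 1560 in the Hmgn1 line, 214.8 to 1546 in the Hmgn3 line and 196.2 to 1386 in the Hmgn5 line, and G0s2 from 278.4 to 1527, 239.8 to 1989 and 289.9 to 900.4. Cxcl1 varied in the Hmgn3 line, from 131.6 to 2458, and was 65.9 to 89.98 and 107.0 to 129.0 in the others. The hepcidin copy Hamp2 and the fatty acid hydroxylase Cyp4a14 varied less, with SDs of 0.63 and 0.58. At the steady end, coagulation factor F9 (SD 0.03) read 2586 to 2633, 2369 to 2502 and 2746 to 2909 in the 3 lines. Sar1b, Cyb5b and Ugt3a2 had SDs of 0.03 to 0.04.

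**Figure D5:**
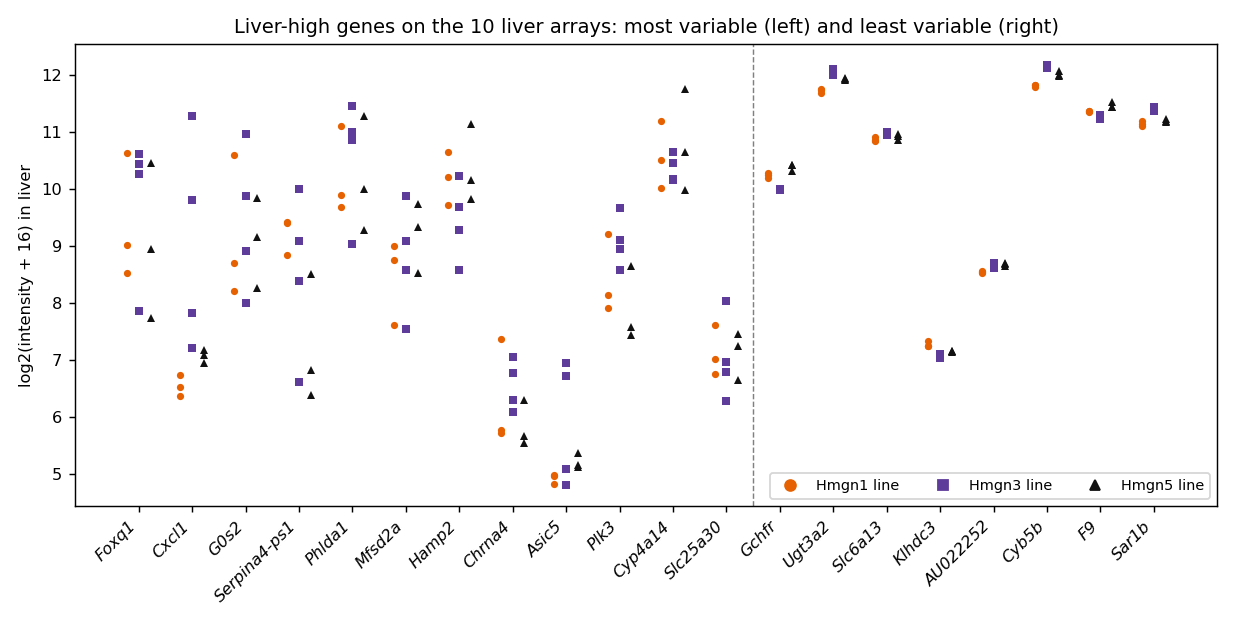
Log2(intensity + 16) on the 10 liver arrays (y axis, points, coloured by line) of the 12 most variable and 8 least variable liver-high genes (x axis). Foxq1, G0s2 and Phlda1 vary within each line, Cxcl1 within the Hmgn3 line, and the steady genes by less than 0.05 (SD).

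The liver difference itself was compared between lines on the 34 arrays. For 1831 of 10119 genes (18.1%) it differed between lines by an F test with an adjusted p under 0.05, which also compares 3 sets of arrays, and line and set cannot be told apart. Ccnd2, which encodes cyclin D2, had a liver difference of -3.50 ± 0.14 (SE) in the Hmgn1 line, -3.89 ± 0.11 in the Hmgn3 line and -1.21 ± 0.13 in the Hmgn5 line (adjusted p of the difference 1.1e-12), the last turning to 0.15 with the deposited values as the scale. With those values 10527 probes differed between lines, against 2630. Its liver values were 21.8 to 31.8, 21.0 to 34.1 and 100.6 to 129.7. Ddx6, an RNA helicase of mRNA decay, had 0.45 ± 0.20, -2.83 ± 0.10 and 1.17 ± 0.19 (adjusted p 1.3e-13). In the Hmgn3 line it read 86.1 to 118.0 in liver, 579.7 to 778.8 in spleen and 879.9 to 990.1 in thymus, while in the Hmgn5 line liver was highest.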

How the data were processed

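RNA of whole organs was extracted with Trizol and RNeasy columns, per the labels' protocols, and biotin-labelled cRNA was hybridised to Illumina MouseRef-8 arrays. The deposited values are background-subtracted intensity values on a linear scale, and per the submitters' processing notes GenomeStudio 2011.1 was used. How they normalized the arrays is not stated in the labels. In the deposited intensity table the arrays of a line and organ had nearly equal quantiles (medians within 0.534% and 75th percentiles within 0.498% of each other), while these sets differed in scale. A further table with 188 per-sample columns, whose names match no labels, was not used. Of 25697 probes, 23978 had 1 gene symbol in the platform annotation.

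Wild-type liver, spleen and thymus arrays of each line were quantile normalized, values below 0 set to 0 and log2(value + 16) taken. Probes above 1.64 times the noise (root mean square of an array's negative values) on 3 or more arrays of the line were tested with limma 3.58.1 in R 4.3.3, with the mouse as a random block and Benjamini-Hochberg adjustment. The pairing comes from organs of the same animal. Over 32 organ pairs of a mouse the deviations correlated at -0.027 to 0.136 (median 0.0119). The line of 1 mouse was assigned by elimination. Lines were compared by an F test on the 34 arrays together. Genes were named by their smallest difference in size (the first 12 in each direction), by the smallest difference in size within each list (up to 4 called), or by the clearest difference between lines. Other list members, the genes not called and the genes of liver variation were picked after their values were seen. The members and lists were chosen with earlier results of these data known. Other scales, filters, blocks and thresholds and leaving out each array were tried. The arrays' number limits the precision. The fits were tested on simulated data.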

Additional observations from a re-analysis of the deposited data

Results flagged for a closer look

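In groups of 4 arrays, Dixon's test on the log2 values found an array apart from the others in 24 of the 186 groups tested. This share cannot be compared with the test's nominal rate of about 1 in 20. Negative intensities had been set to a common floor, so a lone positive value can stand apart even at noise. Ahsg in spleen replicate 2 of the Hmgn5 line, for example, read 3.63 where the other arrays read -1.86 to -0.81. Several flags also came from the same array, so the groups were not independent. Spleen replicate 4 of the Hmgn3 line was apart for Ahsg (229.52), Serpina1c (372.4), Azgp1 (244.22), Mat1a (88.4), Mup21 (67.9) and Vtn (72.2), and for the list of secreted liver proteins (6.68). In the same line Mat1a read 6083 in liver replicate 1, and thymus replicate 2 was apart for Vtn (15.0), Lsp1 (3062) and the skeletal muscle list (6.27). Thymus replicate 4 of that line was apart for Fcho1 (2807).

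In the Hmgn5 line thymus replicate 4 was apart for Coro1a (1265.9) and for the major urinary protein list (5.10), thymus replicate 3 for Atp2a3 (3733) and thymus replicate 1 for the skeletal muscle list (7.09). Spleen replicate 1 of that line was apart for AI467606 (2249.7), Mat1a (6.55) and Vtn (11.9), and spleen replicate 2 for Ahsg (3.63) and Azgp1 (4.63). In the Hmgn1 line thymus replicate 3 was apart for Apoc3 (-2.84) and Mup21 (4.34), and thymus replicate 2 for Hpx (3.18).

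The liver difference varied between lines for 2630 probes (18%, F test, limma). The adjusted p was 1.0588e-12 for Ccnd2, 1.0763e-11 for Zbtb7a, 1.2676e-13 for Ddx6, 6.208e-14 for Ikzf2 and 2.511e-11 for Appbp2. Lines and sets of arrays cannot be told apart.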

How the results depend on the processing

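Probe counts are given as higher in liver, lower in liver and between the other organs, which were 1699, 1566 and 17 as reported. They were 1123, 890 and 3 with an offset of 64, 2617, 572 and 5 with the values as deposited, 3044, 3183 and 112 with no minimum difference, and 887, 483 and 1 with a log2 difference of 2 or more. With a floor of 1 and no offset 2368 were lower and 32 between, with the 75th percentile as the scale 10 were between, with the 34 arrays fitted together 33 were between, and against spleen alone, chosen after seeing the data, 2500 were lower. The remaining settings kept these counts within 1.5 times. Without the replicate block the counts were 1698, 1566 and 17, and with the mouse as a fixed replicate block 1678, 1552 and 13. The probes differing between lines numbered 10527 with the values as deposited, where sets of arrays differ in scale. With the values as deposited the Hmgn1 gene turned to 0.60 in the Hmgn1 line, 0.51 in the Hmgn3 line and 0.76 in the Hmgn5 line, and in the Hmgn5 line Rps19 turned to 0.15, Rps4x to 0.18 and Ccnd2 to 0.15. With the values as deposited 414 of the 420 values of named called genes kept their sign with an adjusted p under 0.05. There Rps3 in the Hmgn1 and Hmgn5 lines (-0.19 and -0.21) fell short of that p. So did Rps19 (-0.13) and Rps4x (-0.07) in the Hmgn1 line. With the 75th percentile the Hmgn1 gene was 0.093 in the Hmgn3 line. The cause was not tested. Leaving out 1 array gave 1429 to 1705 higher, 1547 to 1583 lower, 14 to 18 between and 2084 to 3016 probes differing between lines. The 1429 was without liver replicate 2 of the Hmgn5 line, and the part of the noise filter in it was not tested. With 1 array left out, named called genes kept 402 to 420 values with an adjusted p under 0.05. The missing values were of probes that no longer passed the noise filter, and none that was tested fell short. These genes were named because they were called. Dim probes limit the precision, since values at noise have no order.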
